A study of Homo sapiens with 6 samples.

Results

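The replication-dependent histone genes encode the linker histone H1 and the core histones H2A, H2B, H3 and H4 that package newly made DNA. They were taken as the protein-coding genes of the GENCODE annotation whose symbols are H1-1 to H1-6, H2AC, H2BC, H3C or H4C followed by a number. These were 69 of 20033 protein-coding genes: 6 H1, 17 H2A, 18 H2B, 13 H3 and 15 H4 genes. Each gene was given every peak of the pooled poly(A) 3′-seq list whose summit lay in the gene model or up to 4000 bp past its 3′ end, which came to 130 of 200023 peaks.

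The libraries came from IMR-32 cells, a human neuroblastoma line with MYCN amplification. There were 6 libraries, 2 replicates per group: a DMSO solvent group and groups exposed to THZ531 at 400 nM for 2 h or 6 h. THZ531 binds covalently to CDK12 and CDK13, kinases of transcription elongation, and blocks them. The peak list was called once on merged reads and gave no value per library, so DMSO and THZ531 cells could not be compared, no replicate error could be given and the depth of each library was unknown. All values below are therefore descriptions of the pooled list, and the 95% Wilson intervals of shares cover counting error only.

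Most messenger RNAs are cut downstream of a hexamer such as AATAAA and then receive a poly(A) tail. Replication-dependent histone messenger RNAs are the known exception in animal cells: they end without a tail, a few bases past a conserved stem-loop that is bound by the protein SLBP, after cleavage directed by the U7 small nuclear ribonucleoprotein. The assay primes on poly(A), so a peak at these genes records a tailed 3′ end or priming within an A-rich stretch of RNA. Reads start at the cleavage site, and the edge of a peak nearest the 3′ end of the gene (its 3′ edge) was used as the position of that site.

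The stem-loop was searched in GRCh38 as 16 bases with GG first, CC last, arms of 6 bases, a loop of 4 bases starting TT and at least 5 of 6 Watson-Crick pairs, within 150 bp after the stop codon. It was found in 66 of 69 histone genes and in 0.200% of the other protein-coding genes (40 of 19964), which included the histone genes H2AX, H3-4 and H3-7. The remaining 3 members, H2BC10, H3C6 and H4C13, carried a stem-loop whose loop starts TC, which was seen only after the first search. H3C1 and H4C1 show the 2 common forms, and the sequences are given on the gene strand with the stem arms in capitals:

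H3C1: gcaaaGGCTCTtttcAGAGCCaccaccttt
H4C1: ccaaaGGCCCTtttcAGGGCCgcccaacta
H2AC15: aaaaaGGTTCTtttcAGAGCCacctacttt
H2BC10: ccaaaGGCTCTtctaAGAGCCacccatgtt
H3C6: ccaaaGGCTCTtctcAGAGCCaaccacttt
H4C13: tcaaaGGCCCTtctcAGGGCCacccatgaa

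These lie at chr6:26020927-26020956 for H3C1, chr6:26022025-26022054 for H4C1, chr6:27837876-27837905 for H2AC15, chr6:26273387-26273416 for H2BC10, chr6:26225591-26225620 for H3C6 and chr6:27873144-27873173 for H4C13. Each lies in the 3′ UTR of the canonical transcript and, except for H3C1, just past it. H3C1, H4C1, H2BC10 and H3C6 lie on the plus strand, and H2AC15 and H4C13 on the minus strand. The form of H3C1 was found in 40 members from the H1, H2A, H2B and H3 families and in no H4 gene. All 15 H4 genes carried the arms of H4C1, 10 of them with the same loop. H2AC15 is shown for a base in the left arm without a Watson-Crick partner and was 1 of 2 members with 5 of 6 such pairs. The stem-loop began 22 to 67 bases after the stop codon, with a median of 35, and the canonical transcript model ended 5 bp past the stem-loop in 50 of 69 members. The bases AAAGA were present in the 50 bp past the stem-loop of 29 of 69 members and in the 50 bp past the end of 6.81% of other protein-coding genes. All 69 canonical transcripts had a single exon, with lengths of 386 to 2224 bp.

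At least 1 peak was found for 63 of 69 members (91.3%, 95% interval 82.3 to 96.0%). The same window held a peak in 81.0% of other protein-coding genes and in 38.1% of other single-exon protein-coding genes. The members without a peak were H2AC1 and H2BC1, the pair known for expression in testis, and H1-1, H4C7, H2BC10 and H2AC12. With a −log10 q of at least 5, the cutoff of the study, 60 of 69 members kept a peak (87.0%, 77.0 to 93.0%). The background at that cutoff was 76.9% of other protein-coding genes and 34.5% of other single-exon genes. With a −log10 q of at least 20 the order against other protein-coding genes turned: 20 of 69 members had a peak (29%, 19.6 to 40.6%), beside 44.0% of other protein-coding genes and 14.1% of other single-exon genes. A peak is not a measure of histone mRNA, since the tailless form is not captured.

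A peak at an annotated transcript end, with its summit between 200 bp before and 600 bp after it, was found for 30 of 69 members (43.5%, 32.4 to 55.2%). The background was 67.5% of other protein-coding genes, and 262 of 1048 other single-exon genes (25%) had such a peak, so that the histone genes stood between the 2 sets and their interval overlapped neither. With a −log10 q of at least 20, 7 of 69 members had such a peak (10.1%, 5 to 19.5%), beside 29.5% of other protein-coding genes and 7.92% of other single-exon genes (6.43 to 9.71%), and the intervals of the histone and the single-exon genes overlapped. Past the last annotated end the order was another. Of the 22 members with no other annotated gene 600 to 4000 bp past their end, 14 had a peak there (63.6%, 43.0 to 80.3%), beside 17.2% of other protein-coding genes and 16.1% of other single-exon genes with such a region. In 11 of the 14 at least 1 of these peaks lay in the window of no other histone gene. With a −log10 q of at least 20, 3 of the 22 had a peak past the end (13.6%, 4.75 to 33.3%). The shares were then 1.08% of other protein-coding genes (0.889 to 1.31%) and 2.40% of other single-exon genes (1.41 to 4.07%). The differences are described by their intervals and were not tested, because histone genes in a cluster share peaks and are not independent.

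**Figure D1:**
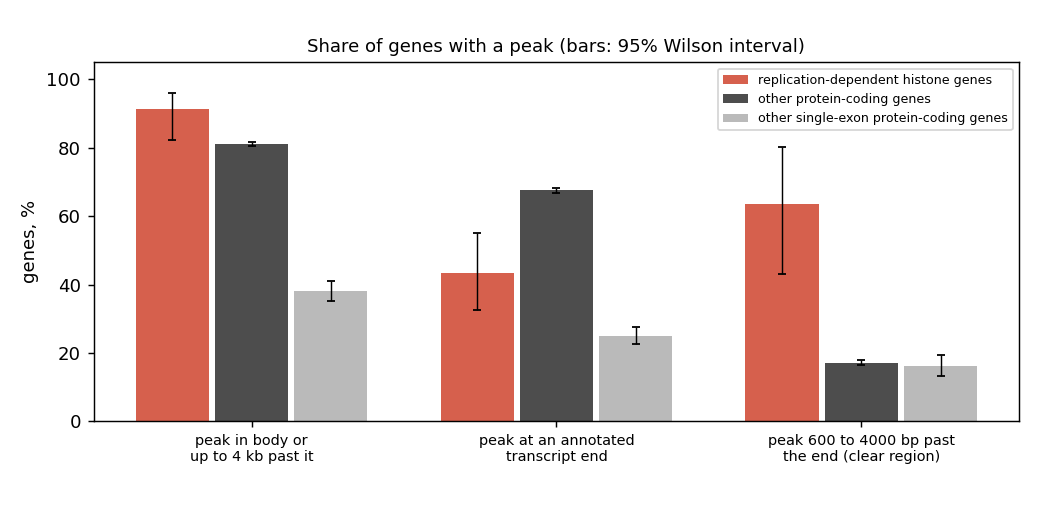
Share of genes, in %, with a peak in the gene body or up to 4 kb past it, at an annotated transcript end, and 600 to 4000 bp past the end where no other gene lies, for the 69 replication-dependent histone genes, other protein-coding genes and other single-exon protein-coding genes. Bars are the shares and lines the 95% Wilson intervals; the histone genes stand at 43.5% for transcript ends and at 63.6% for the region past the end.

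The 3′ edges of the peaks were then measured from the last base of the stem-loop, over 169 pairs of a member and a peak. Of these, 11 ended between 10 bp before and 60 bp past the stem-loop, 12 between 61 and 600 bp past it, 103 more than 600 and up to 4000 bp past it and 34 farther within a long gene model or its window. A further 4 ended in the transcribed unit before the stem-loop, and 5 lay before the start of the canonical transcript. Ends were placed by the 3′ edge alone, also where a peak was wide and its summit lay nearer the stem-loop. The H4C3 summit lay at −77 bp with its edge at 446 bp, and the H2AC20 summit at −79 bp with its edge at 185 bp. In 41 of the 63 members with a peak, no peak ended between 10 bp before and 600 bp past the stem-loop, whereas 67 of 69 canonical transcript models end 0 to 11 bp past it. The density of edges was 1.30 per member and kb in the first 100 bp past the stem-loop, 0.14 from 100 to 200 bp, 0.58 from 200 to 300 bp, 0.34 from 300 to 600 bp, and 0.38 to 0.48 in each interval between 600 and 4000 bp.

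**Figure D2:**
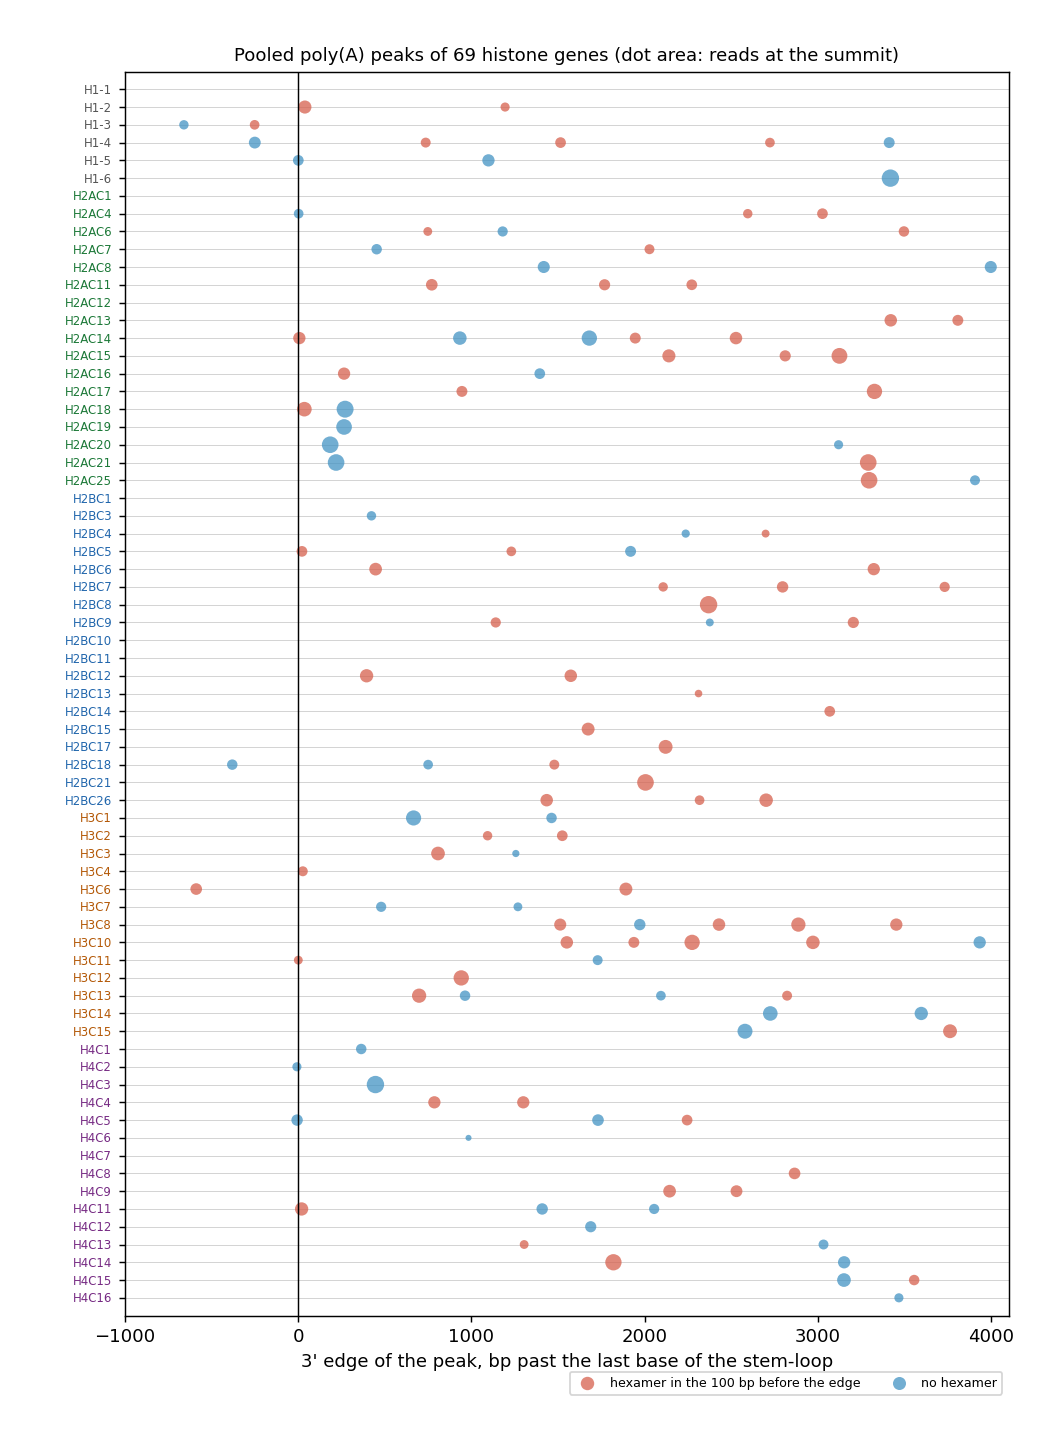
Position of the 3′ edge of each peak in bp past the last base of the stem-loop (vertical line), one row per histone gene ordered by family, for edges from 1000 bp before to 4000 bp past it. The dot area is proportional to the reads at the summit and the colour shows whether 1 of 12 hexamers lies in the 100 bp before the edge; most dots lie beyond 600 bp.

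**Figure D3:**
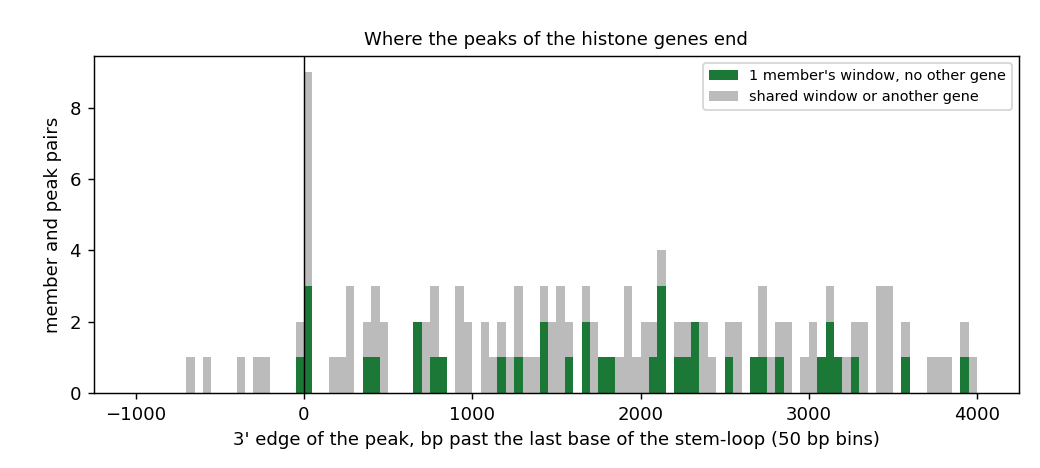
Number of pairs of a member and a peak by the distance of the 3′ edge past the stem-loop, in 50 bp bins. Green marks peaks in the window of 1 member and in no other gene and grey marks the others; a narrow column stands at the stem-loop and the rest are spread to 4000 bp.

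The 11 peaks at the stem-loop lay in the windows of 11 members and differed in their sequence. Only 4 of them, at H4C2, H2AC4, H4C11 and H1-2, lay in the window of 1 member and in no other gene. Those of H1-5, H2AC14 and H2AC18 also lay in the window of a member on the other strand. The list has no strand, so these could not be assigned with certainty. The H4C2 peak had a −log10 q of 4.45, below the study cutoff of 5. The number of reads at the summit, here and below, is the pileup of extended reads recovered from the deposited fold enrichment and p-value, in which each start position counts once per strand. The reads are those at the summit, not at the edge: the summits lay at −10 to −249 bp from the end of the stem-loop, in peaks 100 to 392 bp wide. The H1-2 summit lay at −249 bp in a peak of 383 bp and the H2AC4 summit at −159 bp in a peak of 220 bp, farther from the edge than the 100 bp to which reads were extended. In 6 members the edge lay within 10 bp of the last base of the stem-loop: H4C2 at −7 bp with 16 reads, H4C5 at −6 bp with 25 reads, H3C11 at 1 bp with 15 reads, H1-5 at 1 bp with 22 reads, H2AC4 at 3 bp with 18 reads and H2AC14 at 7 bp with 29 reads. AATAAA was present before none of these 6 edges, and of the 12 hexamers of the study H3C11 held 1 (CATAAA), H2AC14 held 3 and the other 4 members held none in the 100 bp before the edge. The other 5 edges lay 20 to 39 bp past the stem-loop, and each had a hexamer at the stem-loop itself. These 5 sequences are shown because the hexamer stands beside the stem-loop, with the hexamer and the stem arms (for the first 4, the right arm) in capitals:

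H1-2: AGAGCCaccactgatctcAATAAAagagct
H2AC18: AGAGCCacccacgttttcaAATAAAagagt
H2BC5: AGAGCCacgcatgttttcAATAAAtgagtt
H3C4: AGAGCCaaccaccttttcTATAAAagttgc
H4C11: tcAATAAAaGGCCCTtttcAGGGCCaccct

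The first base of the hexamer was the base 13 past the stem-loop in H1-2, H2BC5 and H3C4 and the base 14 past it in H2AC18. They lie at chr6:26055720-26055749 on the minus strand for H1-2, chr1:149842199-149842228 on the minus strand for H2AC18, chr6:26158597-26158626 on the plus strand for H2BC5 and chr6:26196765-26196794 on the minus strand for H3C4. In H4C11, at chr6:27824450-27824479 on the plus strand, AATAAA instead stood between the stop codon and the stem-loop. H2AC18 had 41 reads at this peak, H4C11 34, H1-2 33, H2BC5 22 and H3C4 19. Their fold enrichment over the local background was 3.65 for H2AC18, 9.38 for H4C11, 9.83 for H1-2, 4.38 for H2BC5 and 5.35 for H3C4.

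AATAAA was rare this close to the stem-loop. It was present in the 60 bp past it in 4 of 69 members. Of these 4, H1-2, H2AC18 and H2BC5 had a peak ending at the stem-loop (3 of 4, 95% interval 30.1 to 95.4%). Among the 65 members without it, 8 had one (12.3%, 6.37 to 22.5%). The fourth member, H2AC19, is a near-identical copy of H2AC18: the 100 bases around the H2AC18 summit recur without a mismatch at H2AC19, yet no peak was listed there. Taking the first AATAAA anywhere in the 4000 bp past the stem-loop, which lay at a median of 1067 bp, a peak ended 0 to 60 bp past it in 14 of 68 members (20.6%, 12.7 to 31.6%). The AATAAA and the peak of H1-4 and H2BC5 were the same and were counted for each. The interval treats members with overlapping windows as independent. For the first TTTATT, the same letters read on the other strand, the count was 1 of 67 (1.49%, 0.26 to 7.98%).

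The 12 hexamers of the study, AATAAA and 11 that differ from it at 1 base (any other base as the first, the second or the fifth, or G as the third or the fourth), were searched in the 100 bp ending at the 3′ edge. At least 1 was present for 72 of the 112 member peaks whose genes share 1 strand (64.3%, 55.1 to 72.6%), and on the opposite strand for 34.8%. The transcript-end peaks of other protein-coding genes held one in 78.1% on the gene strand and in 54.1% on the opposite strand. AATAAA itself was present for 36.6% of the member peaks and 9.82% on the opposite strand, beside 46.4% and 13.7% for the other genes. By distance, a hexamer was present for 67 of 103 edges more than 600 and up to 4000 bp past the stem-loop (65.0%, 55.5 to 73.6%) and for 3 of 12 edges 61 to 600 bp past it (25%, 8.89 to 53.2%). A genomic stretch of at least 22 A in 25 bases within 50 bp past the edge, the mark of internal priming used in the study, was present for 5 of 112 peaks (4.46%) and for 1.64% of transcript-end peaks of other genes. The study removed peaks with such a stretch and no hexamer, and none of the 5 held a hexamer before the edge.

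**Figure D4:**
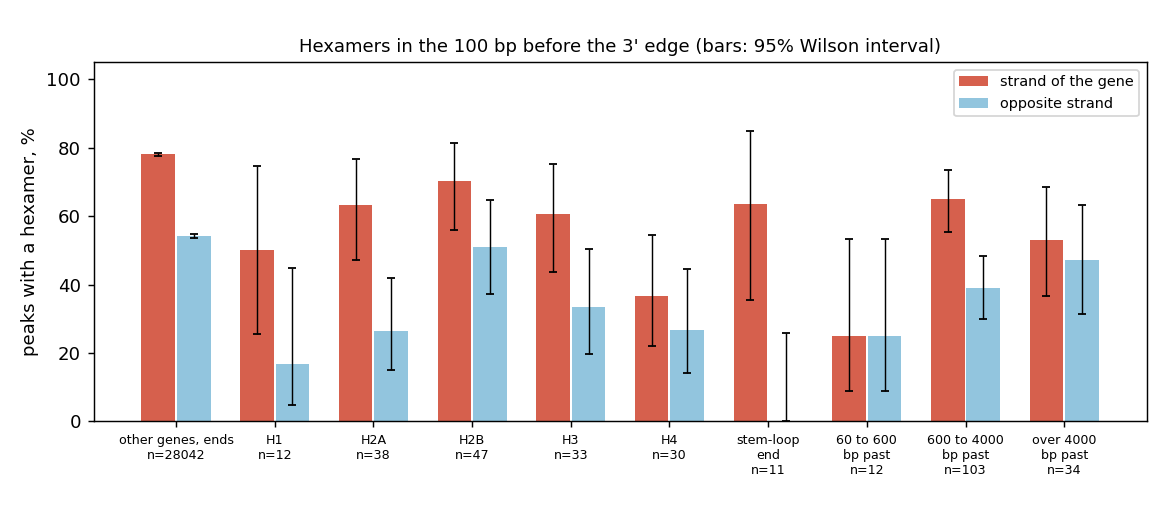
Share of peaks, in %, with at least 1 of 12 hexamers in the 100 bp before the 3′ edge on the strand of the gene and on the opposite strand, with 95% Wilson intervals. Transcript-end peaks of other genes, the 5 histone families and 4 classes of distance past the stem-loop are shown; H4 stands at 36.7% and H2B at 70.2% on the gene strand.

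The 6 sites past the gene shown next were the 6 with the most reads among peaks that ended more than 60 and up to 4000 bp past the stem-loop, lay in the window of 1 member and in the body of no other annotated gene, and had AATAAA 10 to 40 bases before the edge with no AATAAA or ATTAAA nearer to it. The hexamer is in capitals:

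H2BC17: aacaAATAAAaaaagccaaaatgctttata
H3C3: ggaaAATAAAatcaaattccaattttataa
H2AC15: tgatAATAAAattattccattgattctgtt
H2BC26: attcAATAAAgttaaatgagaaataatttt
H2AC11: tcatAATAAAgtgaaatgttcaagttcagt
H2BC14: aggaAATAAAaaaaatggatataaaaacaa

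The peak of H2BC17 ended 2120 bp past the stem-loop with 37 reads at its summit, and that of H3C3 ended 807 bp past it with 36 reads. The peak of H2AC15 ended 2139 bp past it with 33 reads, that of H2BC26 1434 bp past it with 30 reads, that of H2AC11 1768 bp past it with 24 reads and that of H2BC14 3067 bp past it with 22 reads. The sequences lie at chr6:27895967-27895996 (plus) for H2BC17, chr6:26046634-26046663 (plus) for H3C3, chr6:27835738-27835767 (minus) for H2AC15, chr1:228459971-228460000 (plus) for H2BC26, chr6:27135265-27135294 (plus) for H2AC11 and chr6:27818524-27818553 (plus) for H2BC14. All 6 lie outside the canonical histone transcripts. That of H2BC26 lies inside its gene model, which a longer transcript extends to 4551 bp past the stem-loop.

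Among the H1 genes, which encode linker histones, 5 of 6 had a peak, and the tallest peaks ranged from 18 to 58 reads. The tallest peak of H1-2 was that with its edge at the stem-loop, described above, and it had another of 16 reads 1194 bp past it. H1-5 had 29 reads 1098 bp past the stem-loop, in a window shared with H2AC16, which is convergent with it. No hexamer stood before this edge on the H1-5 strand. On the H2AC16 strand the same peak ended 265 bp past the H2AC16 stem-loop, with AATAAA 42 bases before the edge. Without strand in the file it could be given to neither. The 58 reads of H1-6, a histone known from testis, were those of a peak on H4C3, which lies within 4000 bp of the H1-6 end. H1-3 was the 1 member whose peaks lay in the coding unit only, with 18 and 17 reads at edges −251 and −659 bp from the stem-loop end. H1-4 had 27 reads at an edge at −250 bp and 4 further peaks of 18 to 23 reads, 3 of which were shared with H2BC5. None of these coding edges was followed by more than 12 A in 25 bases.

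Of the H2A genes, 15 of 17 had a peak, and the median of their tallest peaks was 45 reads. H2AC18 had 55 reads 271 bp past the stem-loop in a peak that recurs at H2AC19, where 47 reads stood 265 bp past it. No hexamer stood before either edge. H2AC20 and H2AC21, which are convergent, shared a peak of 53 reads that ended 185 bp past the stem-loop of the former and 219 bp past that of the latter, and without strand in the file it could be given to neither. H2AC21 had another peak of 53 reads 3289 bp past its stem-loop, which was also the only peak of H2BC21. H2AC25, which stands apart from the other H2A genes on chromosome 1, had 7 peaks, all in no other gene's window; the tallest, 53 reads 3294 bp past the stem-loop, lay in its long gene model, and the 5 peaks more than 10 kb past the stem-loop had 5 to 8 reads. H2AC6 had 6 peaks of 9 to 21 reads, the last of which ended 14424 bp past the stem-loop with AATAAA 21 bases before the edge. H2AC14 had 5 peaks of 23 to 45 reads, each shared with H3C10.

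Of the H2B genes, 16 of 18 had a peak, and the median of their tallest peaks was 28 reads. H2BC8 had 1 peak, of 58 reads, 2368 bp past the stem-loop, with AATGAA as its hexamer. The 58 reads listed for H2BC4 were those of H4C3, over which a long H2BC4 transcript model runs; its own 3 other peaks had 12 to 13 reads. H2BC21 had a peak of 53 reads whose summit lay 1712 bp past the stem-loop, at its annotated transcript end 1729 bp past it. The peak was 384 bp wide, and its edge lay 2004 bp past the stem-loop with AATAAA 12 bases before the edge. The first AATAAA past the stem-loop lay at 1706 bp. H2BC5 had the most peaks, 8, of 13 to 23 reads: 1 at the stem-loop, 2 downstream, and 5 from 9393 to 16769 bp past it. The peak that ended 12743 bp past the stem-loop of H2BC5, with AATAAA 21 bases before the edge, lay at an annotated transcript end. H2BC6 had 6 peaks, of which that 447 bp past the stem-loop with 31 reads was the tallest, and the first 3 lay before its coding unit, in the window of H2BC5. H2BC18 had 7 peaks of 6 to 21 reads, and the tallest lay in the coding unit; each of the 7 summits had copies elsewhere on chromosome 1.

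All 13 H3 genes had a peak, and the median of their tallest peaks was 39 reads. H3C1, at chr6:26020451-26020958 in the annotation, had a peak of 44 reads and 529 bp width that ended 666 bp past the stem-loop. No hexamer stood in the 100 bp before the edge, but the summit lay at 417 bp, outside that window. The first AATAAA past the stem-loop lay at 487 bp, within the peak. Another peak of 21 reads ended 1462 bp past the stem-loop and was shared with H4C1. H3C12 had 45 reads 941 bp past the stem-loop with AATAAA 14 bases before the edge, shared with the window of H2AC17. H3C10 had 5 peaks of 23 to 45 reads, the tallest 2273 bp past the stem-loop. H3C8 had 5 peaks of 25 to 39 reads in a row from 1512 to 3451 bp past the stem-loop, none nearer; that of 39 reads had AATAAA 18 bases before the edge and that of 28 reads had it 16 bases before.

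Of the H4 genes, 14 of 15 had a peak, and the median of their tallest peaks was 26 reads. H4C3 had the highest −log10 q of all member peaks, 64.0, in a peak of 58 reads and 779 bp width whose summit lay at −77 bp from the end of the stem-loop. The edge of this peak, 446 bp past the stem-loop, had no hexamer in the 100 bp before it. With 23 A in 25 genomic bases past it, that edge meets the internal-priming mark of the study. The summit lay farther from the edge than the 100 bp to which reads were extended, so the mark does not describe the reads at the summit. The first AATAAA past the stem-loop lay at 161 bp, within the peak. H4C1 had 1 peak, of 21 reads, 364 bp past the stem-loop and without a hexamer. H4C14 had 6 peaks of 29 to 55 reads and H4C15 had 5 of 21 to 47 reads; these are near-identical copies, and the last 2 peaks of H4C14 lay in the window of H2AC18. H4C6 had the lowest tallest peak of any member, 7 reads, 983 bp past the stem-loop. A hexamer was present for 11 of 30 H4 peaks (36.7%, 21.9 to 54.5%), beside 33 of 47 H2B peaks (70.2%, 56.0 to 81.3%), 24 of 38 H2A peaks (63.2%, 47.3 to 76.6%), 20 of 33 H3 peaks (60.6%, 43.7 to 75.3%) and 6 of 12 H1 peaks (50%, 25.4 to 74.6%). The H4 interval overlapped those of H1, H2A and H3 and lay below that of H2B. On the opposite strand the H2B share was also above that of H4, 51.1% (37.2 to 64.7%) beside 26.7% (14.2 to 44.4%), with overlapping intervals. Opposite-strand shares were 16.7% for H1, 26.3% for H2A and 33.3% for H3. Whether the difference between H4 and H2B is particular to the gene strand was not tested.

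**Figure D5:**
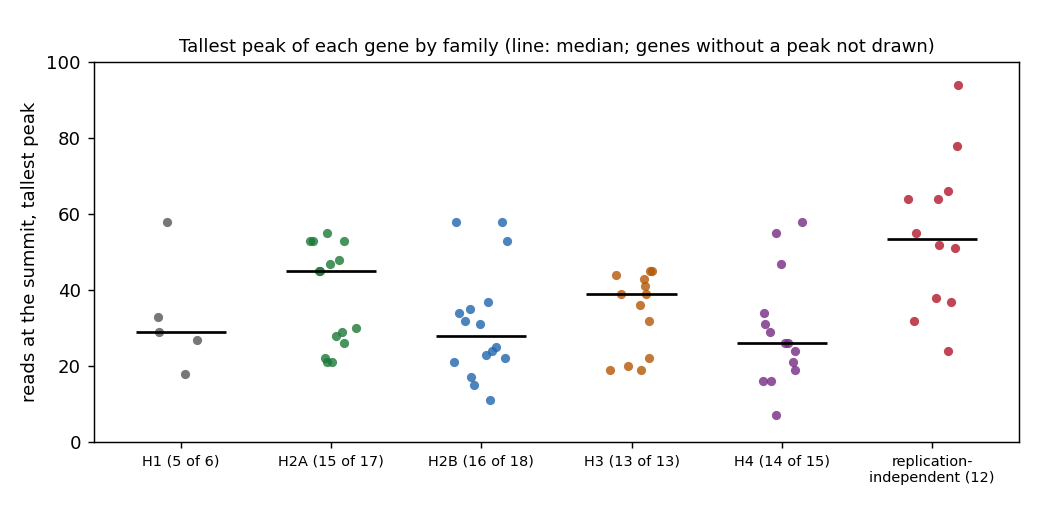
Reads at the summit of the tallest peak of each histone gene with a peak, by family, and of the tallest transcript-end peak of 12 replication-independent histone genes, with the median as a line. The members range from 7 to 58 reads and the replication-independent genes from 24 to 94; a peak shared by neighbours is drawn for each.

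By position, 55 members lay on chromosome 6, 13 on chromosome 1 and 1, H4C16, on chromosome 12. The largest block, chr6:26017032-26285638, held 32 members, of which 29 had a peak, and 61 peaks with a median of 21 reads. The block at chr6:27807479-27893891 held 16 members, all with a peak, and 24 peaks with a median of 24.5 reads. It had 8 members with a clear region past the end, and 7 of these had a peak there. In the block at chr6:27125897-27147562, 4 of 5 members had a peak, and 3 of 4 with a clear region had one past the end. The block at chr1:149782689-149887965 held 11 members, all with a peak, and 22 peaks with a median of 35 reads. In 20 of these 22 the 100 bases around the summit recurred elsewhere in the genome with at least 95 identical bases, whereas this held for 26 of all 130 member peaks. The authors kept reads with up to 20 placements, so that the height of peaks in this block may count reads of several copies, and the part of each copy was not tested. The pair H2AC25 and H2BC26 at chr1:228434777-228463104 had 11 peaks with a median of 18 reads, and H4C16 had 1 peak of 16 reads 3466 bp past its stem-loop.

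The dense clusters limited how peaks could be given to genes. Of the 130 peaks, 94 lay in the window of 1 member, 33 in those of 2 and 3 in those of 3, and 18 lay in windows of members on opposite strands. A summit lay in the body of another annotated gene for 56 peaks, and 2 unconfirmed gene models run over most of the largest block. Only 53 peaks, of 24 members, were free of both. Long gene models were the other limit: 18 members had a model over 1 kb. A peak was found for 16 of the 17 members with an annotated end more than 100 bp past the stem-loop and for 47 of the 52 others.

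The member peaks had a median of 22 reads at the summit, with a range of 5 to 58. The median was 11 reads over all peaks of the list and 17 (quartiles 11 and 25) over the transcript-end peaks of other protein-coding genes. The 12 replication-independent histone genes are made outside S phase as well and have polyadenylated messages, which need not be their only form. All 12 had a peak at a transcript end, with a median tallest peak of 53.5 reads. The highest was H3-3B with 94 reads, followed by H2AZ1 with 78. H2AX, whose gene also holds the stem-loop, had 32. A hexamer stood before the edge of the tallest peak in 8 of the 12, but not in H3-3B, H2AZ1, H2AX or H1-10. The tallest transcript-end peak of the 30 members with one had a median of 29 reads and a range of 6 to 58. A hexamer stood before that peak's edge in 16 of the 30. The median over other protein-coding genes was 24 reads.

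Genes for the machinery were listed as well. All 21 genes of histone pre-mRNA processing had a transcript-end peak, with a median of 33 reads, and a hexamer stood before the tallest one in each. SLBP, which binds the stem-loop, had 46 reads, NPAT, the activator of histone transcription, 17, and LSM11, a protein of the U7 particle, 10. CPSF3, the endonuclease of both pathways, had 38 reads. All 10 genes for factors of canonical polyadenylation had a peak, with a median of 31.5 reads. As a check of the cells, all 10 sympathetic neuroblastoma genes had a transcript-end peak, among them MYCN with 100 reads, and all 6 genes of S phase and proliferation had one of 29 to 61 reads. None of 4 leukocyte genes had one, 2 of 4 epithelial genes had 7 to 8 reads, and 4 of 6 fibroblast genes had 6 to 19 reads.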

How the data were processed

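Poly(A) 3′-seq (QuantSeq REV) libraries of IMR-32 cells were used, 2 per group. Reads were trimmed by the authors and aligned to GRCh38 with STAR 2.5.1b, keeping up to 20 placements; the samples, taken to be these 6, were then merged for 1 round of peak calling with MACS2 2.1.1, extending reads to 100 bp, without a control. The 1 deposited list gives per peak a fold enrichment, the ratio of pileup plus 1 to local background plus 1. The authors' list also gives −log10 p-values and −log10 q-values and the deposited summit offset; it has no strand and no column per sample. Whole-number pileups were solved from fold and p (largest misfit of −log10 p 0.000172), and counts of identical starts are capped by the caller, so heights are not proportional to expression.

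Genes came from GENCODE 44, whereas the study used release 27; no peak on the 24 chromosomes lay past a chromosome end of the reference. Python 3.11.15, pysam 0.24.0 and scipy 1.17.1 were used, and blastn 2.17.0 found copies of the 100 bases around each summit. The steps were tested on simulated data. No test was run, as the list holds 1 pooled value per peak. Named members were, per family, the 3 with the tallest peak, the 10 with the most peaks, H3C1, H4C1, members with peaks in the coding unit only and those without a peak; members shown for a sequence, a peak at the stem-loop or a clear region were chosen after their values were seen. The members and gene lists were chosen with earlier results of these data known.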

Additional observations from a re-analysis of the deposited data

How the results depend on the processing

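No paired analysis was possible because each peak has 1 value for all samples together, so no result comes from a test. Of 45 recomputed values, 27 stayed within 1.5 times the reported count or median, or within the Wilson interval of the reported share. With a −log10 q of at least 20, 20 members had a peak, over 15 peaks with a median of 45 reads. At this cutoff 7 members had one at a transcript end and 3 of 22 past the end, with the shares of other genes given above. Of 12 peaks, 91.7% held a hexamer and 0% an A stretch. With peaks of 1 member and no other gene only, 24 members had a peak, over 53 peaks, and 12 members had one at a transcript end. A reach of 1 kb left 6 of 30 members with a peak past the end, and a window of 100 bp left 17 members with a transcript-end peak. Other genes were not counted again with this choice of peaks, reach or window. The hexamer share was 36.6% for AATAAA alone, 41.1% for AATAAA or ATTAAA, 40.2% in the window ending at the summit and 54.5% in 50 bp. The A stretch share was 12.5% with 18 A of 25. It was 0% where peaks with at least 22 A of 25 and no hexamer were left out, since no peak with such a stretch held a hexamer. Chosen after seeing the data, ignoring unconfirmed gene models gave 21 of 34 members with a peak past the end (61.8%, 45.0 to 76.1%; other genes 17.4%), a loop starting T gave 69 stem-loops, and canonical transcript ends alone gave 24 members. Depth per library is unknown, and a gene without a listed peak may still have had reads.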
